A study of Mus musculus with 6 samples.

Results

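The signals of 8 genes of blood pressure and salt control, Agt, Ren1, Ace, Agtr1a, Mme, Enpep, Nr3c2 and Hsd11b2, were compared between kidneys with and without Selenbp1. They were found by name among the non-control probes of the array, which gave 14 of 56605 probes and 8 of the 37026 genes with a tested probe. The left kidneys came from 3 wild-type (WT) and 3 Selenbp1-KO male mice on the C57BL/6J strain, all 8 weeks old and fasted for 20 h, and the RNA of each kidney was labeled with Cy3 and hybridized to an array of its own. Both genotypes were fasted, so no value here compares fasted with fed kidneys. Selenbp1 encodes selenium-binding protein 1, and how the knockout line was made is not given in the sources used here.

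In the renin-angiotensin system, renin from the juxtaglomerular cells of the kidney cuts angiotensinogen into angiotensin I, and angiotensin-converting enzyme turns that into angiotensin II. Angiotensin II acts mainly through the AT1 receptor to constrict vessels and to release aldosterone from the adrenal gland, and several peptidases on the tubular brush border break it down or convert it. Aldosterone then binds the mineralocorticoid receptor of the distal nephron, which a dehydrogenase shields from glucocorticoids, and raises sodium uptake.

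Each probe is a 60-base oligonucleotide, and the letters of some of the probes are printed below. C57BL/6J mice carry a single renin gene, Ren1, while Ren2 is a near-identical duplicate of other strains, so a probe designed on Ren2 was set beside that of Ren1. The Ren1 probe lies at chr1:135250782-135250841 (mm9, plus strand), whereas the file maps the Ren2 probe to no place on mm9. The letters AATAAA, the usual polyadenylation signal, are in capitals where they occur in the printed stretch, and only 30 bases around them are shown for Ren2 and Agt. Of the 14 probes 2 hold them as printed, that of Agt and probe 4 of Mme, and so does the Ren2 probe. Over all probes the share is 9.77% as printed and 3.85% on the opposite strand. All letters are from the scanner files, 5′ to 3′.
Ren1 probe: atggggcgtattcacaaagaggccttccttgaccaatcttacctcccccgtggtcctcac
Ren2 probe, 30 bases: aaggaaaaaccgAATAAAgatttcatgttt
Agt probe, 30 bases: gcgctgaccgagAATAAAtgatgagcagca
Hsd11b2 probe: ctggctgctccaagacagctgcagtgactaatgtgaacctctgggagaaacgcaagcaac
Enpep, probe 2: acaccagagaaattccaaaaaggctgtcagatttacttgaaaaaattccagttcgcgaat
Nr3c2, probe 3: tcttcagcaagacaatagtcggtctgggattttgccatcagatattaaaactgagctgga

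None of the 8 genes passed the test between genotypes. Levels are log2 signals relative to the array's own 75th percentile, a difference is Selenbp1-KO minus WT, and a gene is called when limma's unadjusted p is under 0.05, the threshold of the methods. At its brightest probe 0 of 8 genes was called, against 8% of all 37026 genes (6.87% higher and 1.13% lower in Selenbp1-KO). All 8 were among the genes well above background throughout a genotype, of which 5.79% were called. None of the 14 probes was called either, against 7.98% of all probes tested and 0.00357% that passed after adjustment. Limma's p ran from 0.0905 for Ren1 to 0.696 for Agt, and the Benjamini-Hochberg adjusted p over all probes from 0.296 to 0.873. Of the 8 genes 4 were higher and 4 lower in Selenbp1-KO, with a median difference of 0.01, while the median was 0.13 over all genes and 0.02 over the genes well above background. In no gene did the WT and Selenbp1-KO values separate without overlap, which 14.1% of all genes and 13.3% of all probes did. Across the 8 genes the 95% confidence intervals of the ratio of Selenbp1-KO to WT reached from 0.58 at the lowest to 1.51 at the highest. Those intervals take no account of array position. With position as a block Mme (-0.64 ± 0.256, SE), Ace (0.41 ± 0.176), Hsd11b2 (0.27 ± 0.194), Agt (0.26 ± 0.164) and Enpep (-0.23 ± 0.178) lay further from 0. Nr3c2 stayed at -0.06, and Ren1 (0.03) and Agtr1a (-0.04) lay nearer to 0. That fit sets the Selenbp1-KO mean against WT replicate 4 alone. With 3 against 3 an exact permutation test of 1 value cannot give a two-sided p below 0.1. In whole kidney RNA, fewer cells of a type and less RNA per cell cannot be told apart.

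**Figure D1:**
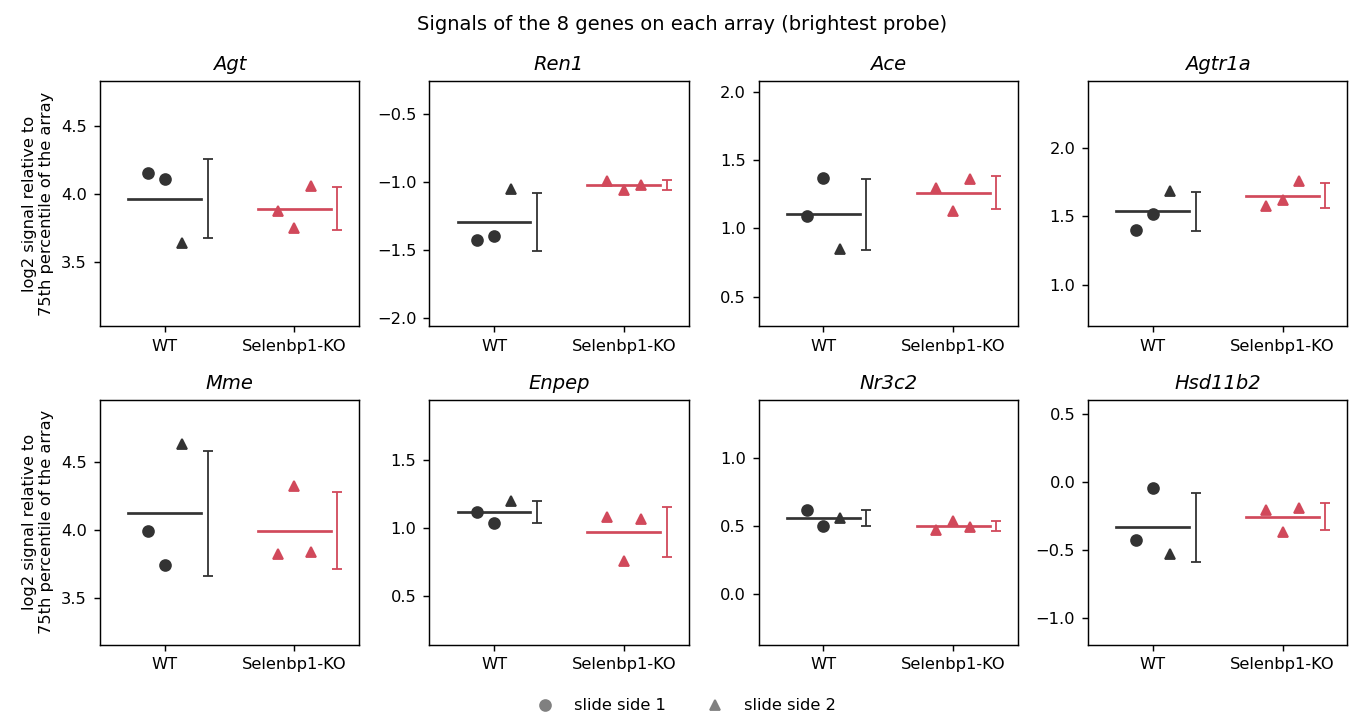
Log2 signal relative to the 75th percentile of the array for the brightest probe of each gene, with 1 point per array, the mean of 3 arrays as a line and ± 1 SD as a bar, and the side of the slide as the marker shape. WT and Selenbp1-KO values overlap in all 8 genes, and the WT spread is the wider one in 7 of them.

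The labels held in the targeted gene. Selenbp1 (NM_009150, chr3:94748621-94748680, mm9) gave 7.07, 7.02 and 7.02 in WT and 4.13, 3.98 and 4.10 in Selenbp1-KO, a difference of -2.96 ± 0.0976 (SE, limma adjusted p = 0.0021), and the Selenbp1-KO signal remained well above background. The probe of its paralog Selenbp2 differed by -3.22 ± 0.101 (SE, adjusted p = 0.0021), and these were the only 2 of 56093 probes with a limma adjusted p under 0.05. Whether the Selenbp2 probe also reads Selenbp1 RNA was not tested. The 75th percentile of the signal was 711 and 751 in WT replicates 2 and 3, 519 in WT replicate 4 and 477 to 584 in Selenbp1-KO. On the 6 arrays 51.8 to 55.5% of spots were well above background, and no spot was saturated. All arrays shared 1 slide by their scan names. The last digits of those names were read as the position on the slide, with the first of them called slide side here, a reading that neither the labels nor the headers spell out. By it WT replicates 2 and 3 were on side 1 and WT replicate 4 on side 2 with the 3 Selenbp1-KO arrays. The arrays of side 1 were thus also those with the highest 75th percentile. With this side as a block 37.3% of the calls over all probes were higher in Selenbp1-KO, against 81.1% without it. Markers of the proximal tubule, 8 genes such as Lrp2 and Slc34a1, were all well above background with a median difference of -0.01, and 0 of the 8 was called. The study's methods say that the C57BL/6J mice came from a supplier and that the Selenbp1-KO line was generated in earlier work. Origin of the mice and genotype therefore cannot be told apart here. Limma's p-values rest on the spread between these 6 kidneys, moderated over all probes, and take no account of origin.

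Agt encodes angiotensinogen, the substrate of renin, which the kidney makes in the proximal tubule. Values are given from here on for WT replicates 2, 3 and 4 and then for Selenbp1-KO replicates 1, 2 and 3. Its probe (NM_007428, chr8:127080661-127080720, minus strand) read 4.16, 4.11 and 3.64 in WT and 3.88, 3.75 and 4.06 in Selenbp1-KO. The lowest value of all was that of WT replicate 4, and the Selenbp1-KO values lay inside the WT range. The means were 3.97 ± 0.287 and 3.90 ± 0.16 (SD, n = 3), a difference of -0.07 ± 0.178 (SE, limma adjusted p = 0.873) with a ratio interval of 0.703 to 1.29. The sign of so small a difference turned when WT replicate 2 was left out (0.02), the value was 0.00 without Selenbp1-KO replicate 2, and it was 0.26 within slide side 2.

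Ren1, which encodes renin itself, showed the largest difference of the 8 genes without a block, but not with slide side as a block, where it was 0.03. The probe (NM_031192) read -1.43, -1.40 and -1.05 in WT and -0.99, -1.06 and -1.02 in Selenbp1-KO. The 3 Selenbp1-KO arrays lay within 0.07 of each other, WT replicates 2 and 3 were lower than any of them, and WT replicate 4 fell among them. Before scaling, the signals were 263, 284 and 250 in WT and 284, 228 and 287 in Selenbp1-KO, so the unscaled intensities overlapped between genotypes. The scaled means were -1.30 ± 0.211 and -1.03 ± 0.0352 (SD, n = 3), a difference of 0.27 ± 0.134 (SE), or a ratio of 1.21 with a 95% interval of 0.961 to 1.51 (limma adjusted p = 0.296). In absolute size this difference exceeded that of 86.1% of the 19261 genes whose signal was well above background throughout a genotype. For the other members that share ran from 30.5% (Nr3c2) to 67.5% (Ace). Ren1 is the largest of 8 differences, so its high rank is no result of its own.

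The reading of Ren1 depended on WT replicate 4. Without that array the difference was 0.39 ± 0.091 (SE), which passed after adjustment (limma adjusted p = 0.049). But in that fit 31.4% of all probes were called and 12522 of 56093 passed after adjustment, against 2 with all arrays. On slide side 2 alone, where WT replicate 4 was the only WT array, the Selenbp1-KO mean was 0.03 above it (limma adjusted p = 0.93 in the fit that blocks on slide side), and WT replicate 4 was 0.36 above the mean of the WT arrays on side 1. By this reading of the scan names side 1 held WT arrays only, so no value for the genotypes can be had there.

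The probe designed on Ren2 gave the same order of arrays between the WT replicates. It was well above background on all arrays, at 2.43, 2.46 and 3.06 in WT and 3.11, 3.07 and 2.87 in Selenbp1-KO. Again WT replicates 2 and 3 were the lowest and WT replicate 4 lay within the Selenbp1-KO range. The difference was 0.37 ± 0.2 (SE, limma adjusted p = 0.34). It was 0.58 without WT replicate 4 (limma adjusted p = 0.049), a fit in which 12522 of 56093 probes passed after adjustment. Within slide side 2 the difference was -0.04. Which transcript this probe reads in a strain without Ren2 was not tested, so the pair of probes was not counted as 2 independent readings of renin.

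**Figure D2:**
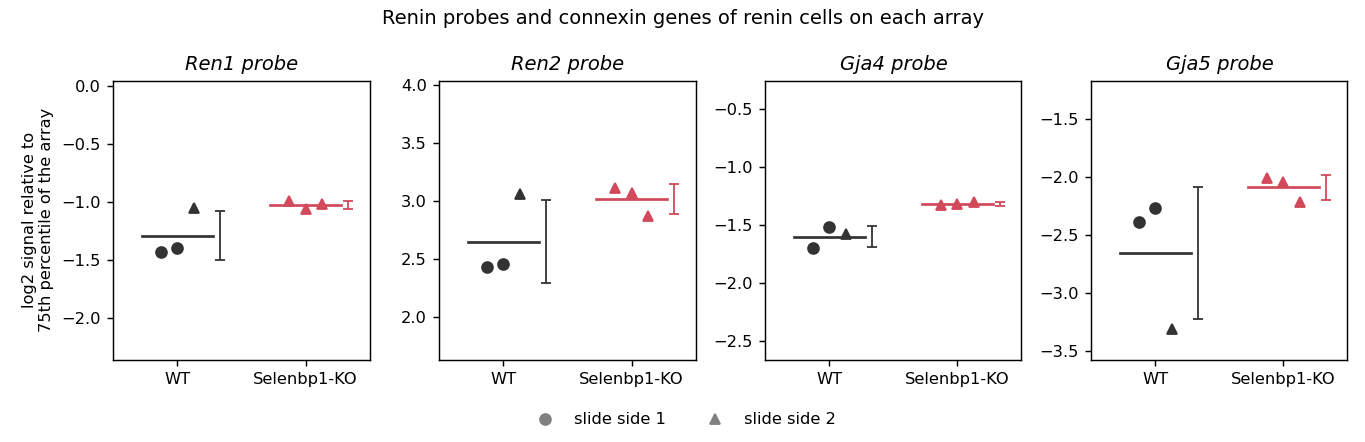
Log2 signal relative to the 75th percentile of the array for the probes of Ren1, Ren2, Gja4 and Gja5, with 1 point per array, the mean of 3 arrays as a line and ± 1 SD as a bar. In both renin probes the WT array on slide side 2 (triangle) lies with the Selenbp1-KO arrays, in Gja4 all WT arrays lie below them, and in Gja5 the WT array on side 2 is the lowest of all 6.

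By the distance between array patterns, the 3 genes nearest to Ren1 among the 18362 well above background on all arrays were the unnamed transcripts NAP092468-001 and ENSMUST00000196011 and the noncoding RNA gene 2310009A05Rik. Their root mean square distances over the 6 arrays, each gene centred on its own mean, were 0.0274, 0.0328 and 0.033 log2 units. Ren1 itself deviated from its mean by a root mean square of 0.183. The 3 genes were picked for their small distance, so that closeness is no result of its own. No gene of the renin cell was among these 3.

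Ace encodes angiotensin-converting enzyme, which the kidney carries on vessels and the brush border. Its probe (NM_009598, chr11:105850398-105850457) read 1.09, 1.37 and 0.85 in WT and 1.30, 1.13 and 1.36 in Selenbp1-KO. WT replicate 4 was the lowest array and WT replicate 3 the highest, with all Selenbp1-KO values between them. The means of 1.1 ± 0.264 and 1.26 ± 0.117 (SD, n = 3) differed by 0.16 ± 0.162 (SE, limma adjusted p = 0.659). Within slide side 2 the difference was 0.41, and WT replicate 4 minus the mean of the other WT arrays was -0.38.

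Agtr1a, the gene of the main AT1 receptor of mice, was steadier. The probe (NM_177322, chr13:30474638-30474697) gave 1.40, 1.52 and 1.69 in WT and 1.58, 1.62 and 1.76 in Selenbp1-KO. The genotypes overlapped between 1.58 and 1.69. The means of 1.54 ± 0.147 and 1.65 ± 0.0932 (SD, n = 3) differed by 0.11 ± 0.121 (SE, limma adjusted p = 0.672), with a ratio interval of 0.882 to 1.33, and by -0.04 within slide side 2.

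Mme, the gene of neprilysin, a peptidase that degrades angiotensin and natriuretic peptides on the proximal tubule, was read by 4 probes. The brightest (ENSMUST00000194134, chr3:63188148-63188625) gave 3.99, 3.74 and 4.63 in WT and 3.82, 4.32 and 3.84 in Selenbp1-KO. Here WT replicate 4 was the highest array, the opposite of its place in Agt and Ace. The means of 4.12 ± 0.463 and 3.99 ± 0.284 (SD, n = 3) gave a difference of -0.13 ± 0.27 (SE, limma adjusted p = 0.852), the widest error of the 8 genes. Without WT replicate 4 the sign turned to 0.13, while within slide side 2 the difference was -0.64 (limma adjusted p = 0.788). Probes 2 and 3, both on NM_001289462 (chr3:63187228-63187287 and chr3:63185750-63185809), varied less. Their differences were -0.08 (limma adjusted p = 0.734) and -0.05 (limma adjusted p = 0.844), and neither showed the array-to-array swing of the brightest probe. The fourth (ENSMUST00000193805, chr3:63148482-63148541) was not well above background on any array, and no fold is given for it.

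Enpep encodes aminopeptidase A, which trims angiotensin II to angiotensin III. The brighter of its 2 probes (NM_007934, chr3:128972910-128972969) read 1.12, 1.04 and 1.2 in WT and 1.08, 0.76 and 1.07 in Selenbp1-KO. Selenbp1-KO replicate 2 was the single low array, and the other Selenbp1-KO values lay within the WT range. The means of 1.12 ± 0.0815 and 0.97 ± 0.183 (SD, n = 3) differed by -0.15 ± 0.13 (SE, limma adjusted p = 0.59), and by -0.23 within slide side 2. The second probe, on the same transcript, spans chr3:129002052-129006662, more than its own length, and differed by 0.05 (limma adjusted p = 0.922). Enpep and Mme share chromosome 3 with the targeted gene, 34.2 and 31.6 Mb away from it.

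Nr3c2, the gene of the mineralocorticoid receptor, had the narrowest interval of the 8. Its brightest probe (ENSMUST00000109912, chr8:79768704-79768763) gave 0.62, 0.50 and 0.56 in WT and 0.47, 0.54 and 0.49 in Selenbp1-KO. All 6 arrays fell within 0.15 log2 units. The means of 0.56 ± 0.0603 and 0.50 ± 0.0388 (SD, n = 3) differed by -0.06 ± 0.0957 (SE, limma adjusted p = 0.789), with a ratio between 0.815 and 1.13. The difference was also -0.06 within slide side 2. The second probe (chr8:79766784-79766843) differed by 0.16 (limma adjusted p = 0.65). The third (chr8:79432389-79432448) was not well above background on any array.

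Hsd11b2 encodes the dehydrogenase that inactivates corticosterone and so keeps it from the mineralocorticoid receptor. The probe (NM_008289, chr8:108046785-108047002) read -0.43, -0.05 and -0.53 in WT and -0.21, -0.37 and -0.19 in Selenbp1-KO. WT arrays were both the highest and the lowest, and the Selenbp1-KO arrays lay between them. The means of -0.33 ± 0.254 and -0.26 ± 0.0965 (SD, n = 3) differed by 0.08 ± 0.156 (SE, limma adjusted p = 0.84), by 0.27 within slide side 2 and by -0.02 without WT replicate 4.

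**Figure D3:**
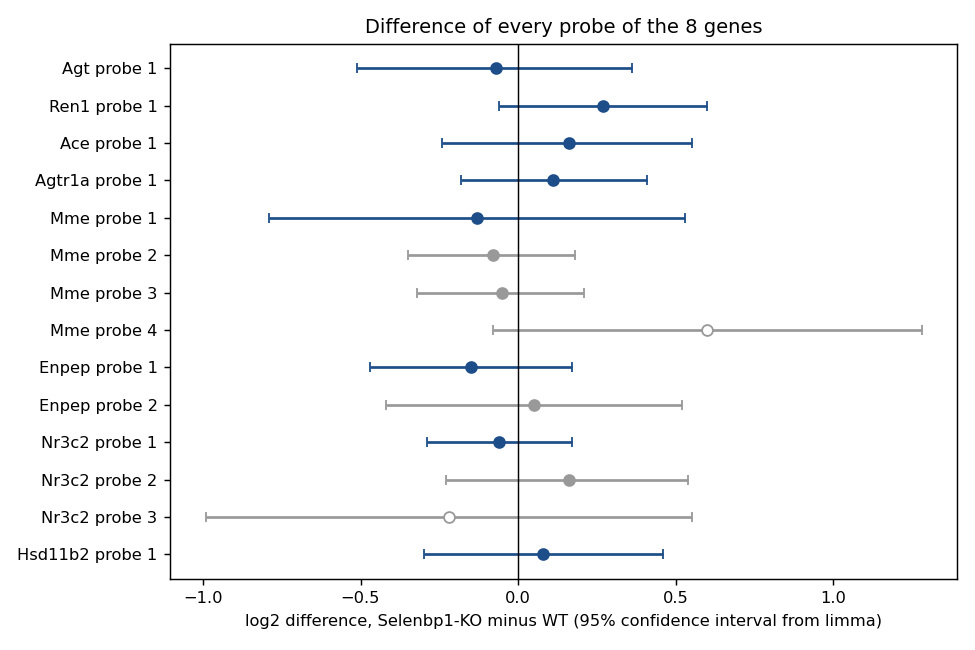
Log2 difference, Selenbp1-KO minus WT, of all 14 probes of the 8 genes with its 95% confidence interval from limma (3 arrays a genotype). Dark blue marks the brightest probe of a gene, gray the other probes, and open symbols the 2 probes that no array read well above background, and every interval crosses 0.

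Around these 8 genes stand 91 others in 5 lists of the same systems. Of the 91, 6 were called (6.59%, against the 8% of all genes), 3 higher and 3 lower in Selenbp1-KO, and their median difference was -0.01. Of the 76 with a signal well above background throughout a genotype, 4 were called (5.26%, against 5.79% of all such genes). The lowest adjusted p among the 91 was 0.279, so none passed after Benjamini-Hochberg adjustment in limma. The count of calls depended on the scaling. With quantile normalization 15 of the 91 were called, where 8.35% of all probes were.

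Among 18 other renin-angiotensin genes 0 was called and the median difference was 0.09. Atp6ap2, the gene of the prorenin receptor, differed by -0.04 (limma adjusted p = 0.865), with 2.77, 2.89 and 2.74 in WT and 2.74, 2.68 and 2.84 in Selenbp1-KO. Its values overlapped between genotypes. Agtr1b, the second AT1 receptor gene of mice, was not well above background on any array at either of its probes. Agtr2, Mrgprd and Ctsg were not well above background either.

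The renin cell list held 22 genes of renin-producing cells and of renin release, with a median difference of 0.09. Of them 3 were called (13.6%, against 8% of all genes), 2 higher and 1 lower. In 7 of the 22 the genotypes did not overlap, against 14.1% of all genes. Gja4, which encodes a connexin of vessels and renin cells, was higher. It read -1.70, -1.52 and -1.58 in WT and -1.33, -1.32 and -1.30 in Selenbp1-KO, with no overlap, a difference of 0.29 ± 0.0997 (SE, limma adjusted p = 0.279). Ep300, which encodes an acetyltransferase that coactivates the renin gene, was lower, at -0.86, -0.71 and -0.85 in WT against -1.04, -1.10 and -1.30 in Selenbp1-KO. The groups did not overlap, and the difference was -0.34 ± 0.116 (SE, limma adjusted p = 0.279). The remaining call, Ptger2, was not well above background on any array and is named only because it completes the count. Neither of the bright calls held in every fit with an array left out. Gja4 was no longer called without WT replicate 2 (0.23) or without Selenbp1-KO replicate 1 (0.29), replicate 2 (0.29) or replicate 3 (0.28). Ep300 lost its call without WT replicate 2 (-0.36), WT replicate 3 (-0.29) or Selenbp1-KO replicate 3 (-0.26), and with its probes averaged, where the value was -0.13. Both genes also lost it with slide side as a block (0.27 for Gja4 and -0.30 for Ep300) and with the replicate block (0.30 and -0.41), and Gja4 with median scaling (0.27).

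Gja5, chosen after its values were seen, encodes the connexin through which renin cells sense pressure, and its probe lies 2.11 Mb from that of Selenbp1. It read -2.39, -2.27 and -3.31 in WT and -2.01, -2.04 and -2.21 in Selenbp1-KO. The groups did not overlap, but WT replicate 4 stood far below the other WT arrays and the difference of 0.57 ± 0.286 (SE) was not called (limma adjusted p = 0.302). It was called in 4 of 18 alternatives, with slide side as a block (1.22), with normexp (0.42), without WT replicate 3 (0.76) and under the trend and robust settings of limma (0.57). Without WT replicate 4 it was 0.24, with the replicate block 0.20 and with its probes averaged 0.34, and it was not called in these.

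Of 11 genes of steroid receptors and ligand control, 1 was called (9.09%, against 8% of all genes) and the median difference was -0.08. In 2 of the 11 the genotypes did not overlap, against 14.1% of all genes. The call was Hsd11b1, which encodes the enzyme that regenerates active corticosterone, the reverse of the Hsd11b2 reaction. It read 3.71, 3.58 and 3.26 in WT and 3.86, 4.17 and 4.12 in Selenbp1-KO. The lowest Selenbp1-KO value exceeded the highest WT value, and the difference was 0.53 ± 0.161 (SE), a ratio of 1.44 with an interval of 1.1 to 1.90 (limma adjusted p = 0.279). Within slide side 2, where WT replicate 4 was the only WT array and the lowest of all, the difference was 0.79. Without WT replicate 4 it was 0.40 and was still called (limma adjusted p = 0.118), in a fit that called 31.4% of all probes. The call was lost when Selenbp1-KO replicate 2 (0.47) or replicate 3 (0.49) was left out. Nr3c1, the glucocorticoid receptor gene, differed by -0.05 (limma adjusted p = 0.887).

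Of 21 aldosterone-responsive genes of sodium and potassium transport 0 was called, 16 were lower and 5 higher, and the median difference was -0.07. Sgk1, the kinase that aldosterone induces early, read 5.50, 5.31 and 4.94 in WT and 4.99, 5.25 and 5.29 in Selenbp1-KO, with overlap and a difference of -0.07 (limma adjusted p = 0.872). Of the subunits of the epithelial sodium channel, Scnn1a differed by -0.11 (limma adjusted p = 0.674) and Scnn1g by 0.11 (limma adjusted p = 0.661). Scnn1b was well above background on 2 arrays of each genotype only. Tsc22d3, a steroid-induced leucine zipper gene, differed by -0.11 (limma adjusted p = 0.606).

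Of 19 kinin, natriuretic peptide and endothelin genes 2 were called, both lower, and the median difference was 0.01. Bdkrb2, the gene of the bradykinin receptor that most tissues carry, read -3.60, -3.62 and -3.70 in WT and -3.96, -4.13 and -3.90 in Selenbp1-KO. The groups did not overlap and the difference was -0.36 ± 0.109 (SE, limma adjusted p = 0.279). The call was lost without WT replicate 2 (-0.34), with slide side (-0.30) or replicate number (-0.41) as a block, under limma's trend and robust settings (-0.36) or with its probes averaged (-0.09). With normexp background correction the value was 0.01, and its signals before scaling were 27.2 to 61.1 on the 6 arrays. The other call, Nppb, was not well above background on any array.

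Markers of other cell types moved between the same kidneys. All 6 connective tissue fibroblast genes were called higher in Selenbp1-KO (median difference 0.96), and their mean level ran from -0.70 to -0.29 in WT and from 0.19 to 0.68 in Selenbp1-KO. Of 6 macrophage genes 4 were called higher (median 0.44), with mean levels of -0.54 to -0.36 in WT and -0.13 to 0.03 in Selenbp1-KO. For 6 red blood cell genes the count was 5 higher (median 0.94), with means of 1.61 to 2.04 and 2.40 to 2.92, although Ahsp was not well above background on any array. The 6 fat tissue genes had a median of 0.77 with 0 called, and their means of -0.30 to 0.84 in WT and 0.15 to 2.05 in Selenbp1-KO overlapped. The part of these cells in the values of Ren1, Gja4, Hsd11b1, Ep300 and Bdkrb2 was not tested.

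Further cell type lists were set beside the 5.79% called among all genes well above background throughout a genotype. Endothelial markers gave 0 of 6 (median 0.03, means 1.11 to 1.23 in WT and 1.16 to 1.34 in Selenbp1-KO) and vascular smooth muscle markers 0 of 6 (median -0.08, means 0.31 to 0.52 and 0.16 to 0.70). The loop of Henle, distal tubule and collecting duct, where the mineralocorticoid receptor acts, gave 1 of 10 (10%, median 0.09). The podocyte list gave 1 of 6 (16.7%, median -0.03). Of the 7 adrenal cortex genes 0 was called. Cyp11b2, the aldosterone synthase gene, and Cyp11a1, Cyp11b1 and Mc2r were not well above background on any of the arrays. No fold or list median is therefore given. Hsd3b1 (difference 0.24) and Cyp21a1 (0.19) were well above background on all 6 arrays, and Star (0.03) on 3 WT and 2 Selenbp1-KO arrays. Of the 4 measured medulla genes 0 was called, with Th (-0.09) well above background on all 6 arrays and Dbh, Pnmt and Chgb on none. The part of adrenal tissue in the values above was not tested.

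**Figure D4:**
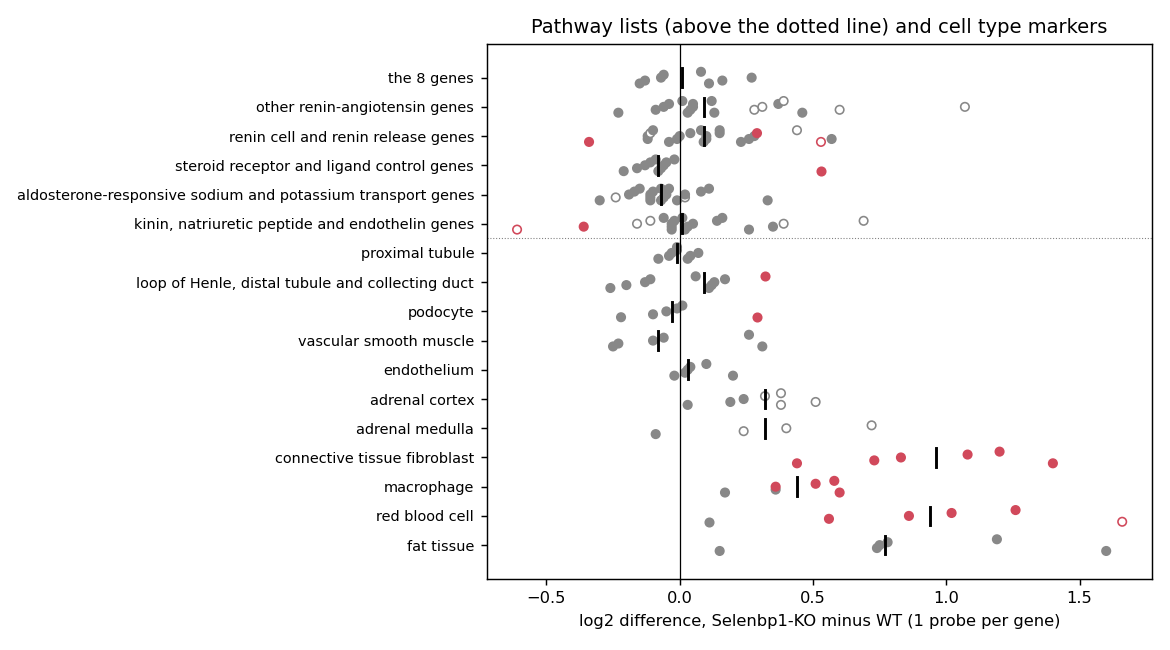
Log2 difference, Selenbp1-KO minus WT, of each gene (1 probe per gene) in the 8 genes, the 5 pathway lists and the marker lists, with red for genes called by limma at an unadjusted p under 0.05, open symbols for genes whose signal was not well above background throughout a genotype, and a black tick at each list's median. The pathway lists centre between -0.08 and 0.09, while the fibroblast list has a median of 0.96 and the red blood cell list of 0.94.

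The 8 genes were then followed through 18 other ways of processing or leaving out arrays. Ren1 stayed positive in 18 of 18, from 0.03 to 0.39, and was called in 2 of them. These were limma's trend and robust settings (0.27, limma adjusted p = 0.359) and the fit without WT replicate 4. Over all probes 13.4% and 31.4% were called in these fits. Ace stayed positive (0.01 to 0.41), and Enpep (-0.23 to -0.04) and Nr3c2 (-0.09 to -0.03) stayed negative in all 18. Agt, Agtr1a, Mme and Hsd11b2 each changed sign in at least 1 of the 18, and no gene of the 8 other than Ren1 was called in any.

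**Figure D5:**
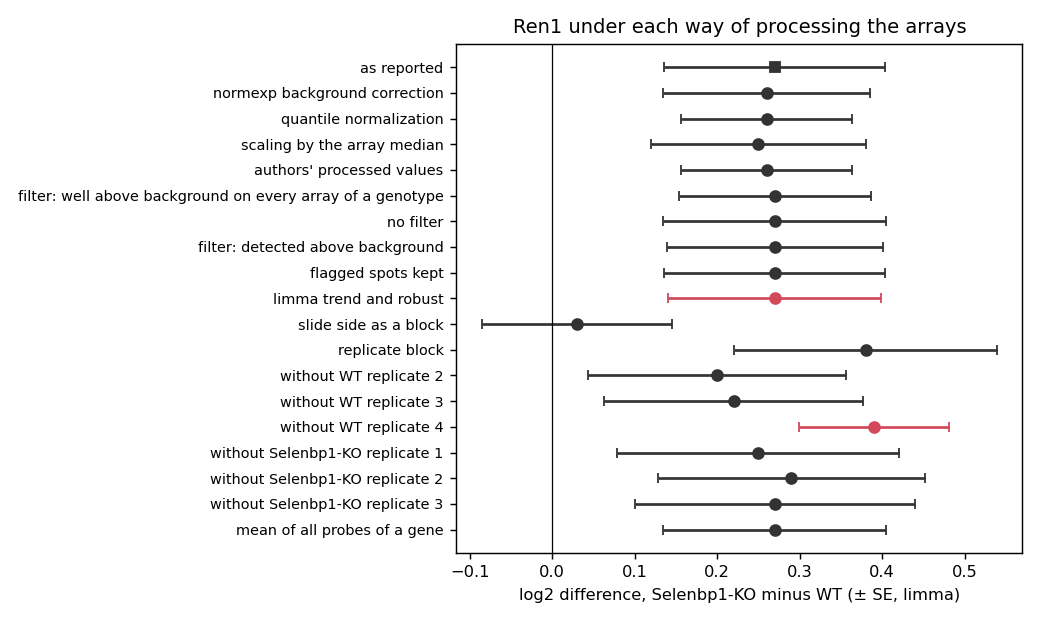
Log2 difference of Ren1, Selenbp1-KO minus WT, with ± 1 SE from limma, as reported and under each of the 18 alternatives, in red where limma's unadjusted p was under 0.05. The value stays near 0.27 under every scaling and filter, falls to 0.03 once slide side is a block and rises to 0.39 without WT replicate 4.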

How the data were processed

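Kidney RNA of 3 WT and 3 Selenbp1-KO mice was measured on 1-color Agilent arrays. The authors deposited, per array, linear intensity values of Feature Extraction (version 10.7.1.1 per the file headers, 9.5.1.1 in the submitters' processing notes), corrected for background and spatial trend but not brought to a common scale, and a p-value for every spot against its background. They also deposited a table of quantile normalized intensities, used as an alternative. The headers name the design Agilent-074809 and build mm9. The labels and the study's methods name different RNA extraction kits.

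From the log2 intensity of each spot, that of the 75th percentile of the non-control spots on its array was subtracted. Spots that the software marked as non-uniform or population outliers were left out, spots of a probe were averaged, and a probe was tested if its detection p was under 0.05 on 1 array or more, following the methods. Another 4 probes had no usable spot on an array, which left 56093. The genotypes were fitted by lmFit and eBayes of limma 3.58.1 in R 4.3.3, two-sided and with no covariate. A call is an unadjusted p under 0.05, with Benjamini-Hochberg values over all probes tested. A gene is read at its probe with the highest mean over 6 arrays. RefSeq accessions of GRCm38.p6 named 32994 probes, 1535 by another name than the file's. No annotation of mm9 was used, so exons and UTRs were not assigned. Signals of different probes were not compared as levels.

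The members and lists were chosen with earlier results of these data known. Named genes are the 8 members, Selenbp1, Selenbp2, further fixed genes (Agtr1b, Atp6ap2, Nr3c1, Sgk1, Scnn1a, Scnn1b, Scnn1g and Tsc22d3, with 1 more that is not reported here), up to 5 called genes a list by size among those well above background on every array of a genotype, and the 3 genes nearest to Ren1 in pattern. The alternatives were normexp background correction (offset 50), quantile normalization, median scaling, the authors' values, 3 filters, outlier spots kept, limma's trend and robust options (statmod version 1.5.0), slide side (read from the scan names) or replicate number as a block, each array left out, and a gene's probes averaged. The comparison was tested on simulated data. No sample was left out.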

Additional observations from a re-analysis of the deposited data

How the results depend on the processing

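Selenbp1 kept its direction and its call in all 17 alternatives (-3.02 to -2.92). Of the 8 genes 0 was called in every alternative but limma's trend and robust options and the fit without WT replicate 4, with 1 each, Ren1, so that leaving out arrays gave 0 to 1. The probes called, 4478 as reported, were 14616 with median scaling, 2841 with only probes well above background, 7537 with the trend and robust options and 2023 to 17586 with an array left out (lowest without WT replicate 2, highest without WT replicate 4). Calls among the 91 other pathway genes, 6 as reported, were 11 with normexp and 15 with quantile normalization and with the authors' values. They were 10 with only probes well above background, 13 with the trend and robust options, and 2 to 15 with an array left out (Selenbp1-KO replicate 3 and WT replicate 4). The share called over all probes was 7.98% as reported, 11.3% with normexp, 8.35% with quantile normalization and 8.36% with the authors' values. It was 9.97% with only probes well above background, 13.4% with the trend and robust options, 6.67% without Selenbp1-KO replicate 3 and 31.4% without WT replicate 4. Signs turned for Bdkrb2 with normexp (0.01), for Agt (0.26), Agtr1a (-0.04) and the Ren2 probe (-0.04) once slide side was a block, for Agt when arrays were left out (-0.24 to 0.02, turned without WT replicate 2 and, at 0.00, Selenbp1-KO replicate 2), for Mme (-0.32 to 0.13) and Hsd11b2 (-0.02 to 0.22) without WT replicate 4, and for Mme in the mean of all its probes (0.08). The cause was not tested. The median difference of all probes was 0.11 as reported and 0.00 with quantile normalization, and the share of calls that were higher in Selenbp1-KO went from 81.1% to 54.8%, and to 37.3% with slide side as a block. Probes not well above background carry no fold.

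With the replicate number as a block, the genotypes share only numbers 2 and 3, whose arrays deviated together with r = 0.17 and 0.19 over 28509 probes, too few to treat as pairs. That fit called 18430 probes (32.9% of those tested), 10 of the 91 pathway genes and 0 of the 8, and turned the sign of Mme (0.22) and Hsd11b2 (-0.04).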
